A study of Mus musculus with 8 samples.

Results

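The cholesterol synthesis genes described here are 8 genes chosen by name: the enzymes Hmgcs1, Idi1, Fdps, Fdft1, Sqle and Cyp51, the regulator Insig1 and the transcription factor gene Srebf2. Every probe set that the platform annotation assigned to a member was taken, which gave 18 of the 22690 probe sets and 7 of the 12394 genes with a probe set. No probe set was annotated to Insig1, so no value is given for it. The arrays came from 4 groups of 2: emigrants from mice given TCDD, emigrants from mice given oil, thymocytes from mice given TCDD and thymocytes from mice given oil. TCDD (2,3,7,8-tetrachlorodibenzo-p-dioxin) is a dioxin that activates the aryl hydrocarbon receptor (AhR), and it was injected intraperitoneally at 10 µg/kg in corn oil. The oil groups received the corn oil alone. All mice were female C57BL/6 animals aged 6 to 8 weeks with no genetic change named in the labels. All received FITC in the thymus 5 days after TCDD or oil, and cells were sorted 24 h after the dye. Thymocytes were CD4-CD8- cells of the thymus, and emigrants were CD4-CD8- cells of the spleen. The series' design text adds that the sorted cells were FITC+, which the sample labels do not state.

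The mevalonate pathway starts from acetyl-CoA, which Hmgcs1 condenses into HMG-CoA, and later enzymes turn it into the isoprenoid units from which squalene, lanosterol and cholesterol are built. SREBP-2, the product of Srebf2, is a membrane-bound transcription factor that is cut and moves to the nucleus when cell sterol falls, and it then raises transcription of most enzymes of the pathway. Insig proteins hold the SREBP complex in the endoplasmic reticulum when sterol is plentiful. Dividing lymphocytes draw on the pathway for new membrane, and in mouse and human liver cells activated AhR is known to lower expression of several of these enzymes.

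The promoters of such genes are known for short motifs that bind SREBP and its usual partners NF-Y and Sp1. Windows of 250 bases ending just before the gene's start were available for 5 of the 8 members in RefSeq's GRCm38.p6 sequence. The windows of Hmgcs1, Idi1, Cyp51 and Srebf2 are shown because the first and last of them hold a sterol core and the middle pair hold a dioxin response core instead. Each is given 5′ to 3′ on the gene's own strand, with capitals marking the core of a sterol regulatory element (TCACNCCA, where N is any base) and the CCAAT box, which reads ATTGG when it lies on the other strand. The Hmgcs1 window is chr13:119690101-119690350 on the plus strand, the Idi1 window chr13:8885356-8885605 on the plus strand, the Cyp51 window chr5:4104698-4104947 on the minus strand and the Srebf2 window chr15:82147019-82147268 on the plus strand.
Hmgcs1: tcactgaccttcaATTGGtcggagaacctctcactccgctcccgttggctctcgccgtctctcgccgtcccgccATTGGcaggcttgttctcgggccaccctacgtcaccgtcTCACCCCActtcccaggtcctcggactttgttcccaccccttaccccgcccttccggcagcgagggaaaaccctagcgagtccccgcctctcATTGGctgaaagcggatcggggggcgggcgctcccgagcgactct
Idi1: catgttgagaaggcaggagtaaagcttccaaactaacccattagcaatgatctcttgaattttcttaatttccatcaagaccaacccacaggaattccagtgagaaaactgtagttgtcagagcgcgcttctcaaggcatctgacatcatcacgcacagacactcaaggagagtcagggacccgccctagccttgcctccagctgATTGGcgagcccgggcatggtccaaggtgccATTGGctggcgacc
Cyp51: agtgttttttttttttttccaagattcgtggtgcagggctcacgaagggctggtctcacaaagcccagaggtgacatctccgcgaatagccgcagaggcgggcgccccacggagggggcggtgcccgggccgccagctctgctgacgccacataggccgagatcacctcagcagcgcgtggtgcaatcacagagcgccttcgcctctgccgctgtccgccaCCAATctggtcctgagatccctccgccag
Srebf2: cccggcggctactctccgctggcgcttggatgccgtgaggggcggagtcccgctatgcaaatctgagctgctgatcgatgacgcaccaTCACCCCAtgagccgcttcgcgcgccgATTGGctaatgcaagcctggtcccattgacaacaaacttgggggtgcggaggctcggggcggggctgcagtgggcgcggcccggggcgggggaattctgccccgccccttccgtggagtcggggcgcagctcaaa

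The sterol core was found in the windows of 2 members, Hmgcs1, where its first base lay 137 bases before the start, and Srebf2, where it lay 162 bases before it. Of all 32851 promoter windows of that length, 3.67% held this motif on either strand. The CCAAT box, bound by NF-Y, was present in all 5 member windows and in 33.8% of all windows, with 3 copies in Hmgcs1, 2 in Idi1 and 1 each in Cyp51, Insig1 and Srebf2. The GC box GGGCGG, bound by Sp1, was also present in all 5 and in 32.7% of all windows. The core of the dioxin response element, GCGTG, to which AhR binds with its partner ARNT, occurred in Idi1, Cyp51 and Insig1 and in 28.2% of all windows. No match of these 4 motifs overlapped a match of another. These matches describe letters in a window and are not measured binding sites.

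The array values are log2 RMA values, so a difference of 1 is a 2-fold difference in the summarised signal, and each group has n = 2 arrays. The array medians lay between 4.81 and 4.91. Of the 18 member probe sets, 9 lay above the median of every array, 6 above some medians, and 3 below all of them. The low ones were Fdps 1438150_at and Cyp51 1422534_at and 1422533_at. For counts over genes, the probe set whose mean over all 8 arrays was highest stands for its gene, and no level is set against that of another probe set. As the cells are a sorted bulk, fewer cells of a type and less RNA per cell cannot be told apart. Of the genes marking cells that the gate should remove, Cd4 lay between 5.04 and 5.31 in emigrants and between 4.53 and 5.20 in thymocytes. Cd8a lay between 4.57 and 6.24 in emigrants and between 5.05 and 7.14 in thymocytes. Cd8b1 lay between 3.80 and 5.04 in emigrants and between 4.18 and 5.75 in thymocytes. In thymocytes Rag1, which early thymocytes express, lay between 9.33 and 10.21. Emigrants oil 2 stood apart from the other emigrants on some marker genes, picked after their values were seen. Its Rag1 level was 9.81, against 5.10 and 3.75 in TCDD emigrants and 3.89 in emigrants oil 1. Its Col3a1 level was 6.75, against 4.09 and 4.39 in TCDD emigrants, 4.15 in emigrants oil 1 and 4.35 to 5.73 in thymocytes. Other genes of the same lists did not follow. Its Il2ra level, 5.78, lay between those of other emigrants (4.77 to 6.12), and its Krt5 level, 5.01, was the lowest of the emigrants. The macrophage marker gene Csf1r lay between 9.71 and 10.63 in emigrants and between 8.64 and 9.34 in thymocytes. It was the only 1 of 12 macrophage and dendritic cell markers with all emigrant arrays above all thymocyte arrays. H2-Aa (8.68 to 9.63 in emigrants, 10.65 to 11.49 in thymocytes) and Cd74 (5.91 to 6.44 and 6.83 to 7.24) were lower in emigrants without overlap. The other markers of that list overlapped. Tiparp, a direct AhR target, had levels of 7.74 and 9.09 in TCDD emigrants against 6.56 and 5.83 in oil emigrants, and of 6.68 and 7.83 in TCDD thymocytes against 5.55 and 5.96 in oil thymocytes. Scin, a gene known to respond to TCDD in the mouse thymus, had levels of 9.97 and 6.30 in TCDD emigrants against 4.88 and 4.87 in oil emigrants, and of 11.09 and 10.74 in TCDD thymocytes against 7.88 and 7.37 in oil thymocytes. On both genes the groups named by the titles did not overlap within a cell source. Of all probe sets, 13.7% were higher after TCDD without overlap in emigrants and 9.69% in thymocytes. Both genes were chosen after their values were seen, so they do not settle which label fields are right. The Treatment field of emigrants oil 1 names TCDD, against its title, and that of emigrants oil 2 reads Dioxane 2. The labels also describe the TCDD thymocyte arrays as oil alone in one field, and the groups follow the titles. Nothing in the labels states that arrays with the same group name are of different animals, so every p here is measured against a spread between samples that may be technical.

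Hmgcs1, the HMG-CoA synthase of the cytosol, had levels of 10.20 and 9.86 in TCDD emigrants and of 10.35 and 10.56 in oil emigrants on probe set 1433443_a_at. In thymocytes the levels were 10.13 and 8.94 after TCDD and 9.95 and 8.90 after oil. The TCDD emigrants thus lay below the oil emigrants, while the thymocyte groups overlapped and each held a high array and a low array. The second probe set, 1433445_x_at, read 8.14 and 7.89 in TCDD emigrants, 8.08 and 8.85 in oil emigrants, 8.46 and 7.32 in TCDD thymocytes and 8.33 and 7.45 in oil thymocytes. The third, 1433444_at, read 7.64 and 7.65 in TCDD emigrants, 7.98 and 8.72 in oil emigrants, 8.14 and 7.22 in TCDD thymocytes and 7.84 and 7.26 in oil thymocytes. The emigrant groups overlapped on the second set and not on the third, and on both the thymocyte arrays numbered 1 lay above those numbered 2. The suffixes matter here, since an _x_at probe set may bind related sequences and an _a_at set reads several transcripts of a gene. The fourth set, 1433446_at, lay between 4.51 and 5.10 on 7 arrays and at 6.40 on emigrants oil 2.

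Idi1, which interconverts the isoprenoid building blocks, showed its highest level on emigrants oil 2. On 1451122_at the levels were 7.28 and 7.38 in TCDD emigrants, 7.21 and 9.02 in oil emigrants, 8.08 and 7.42 in TCDD thymocytes and 8.47 and 7.42 in oil thymocytes. The oil emigrants differed from each other by 1.81, which is more than any difference between group means for this gene. The second probe set, 1423804_a_at, gave 5.39 and 4.76 in TCDD emigrants, 5.30 and 6.66 in oil emigrants, 5.87 and 5.55 in TCDD thymocytes and 6.70 and 5.03 in oil thymocytes, and its groups also overlapped within each cell source.

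Fdps joins isoprenoid units into farnesyl diphosphate, the branch point toward sterols and prenylated proteins. On 1423418_at it ranged from 4.64 to 5.47, with 5.02 and 4.91 in TCDD emigrants, 4.64 and 5.21 in oil emigrants, 5.18 and 5.12 in TCDD thymocytes and 5.47 and 5.21 in oil thymocytes. These levels lay above the array median on every array except emigrants oil 1. The dim set 1438150_at ranged from 2.84 to 3.75.

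Fdft1, squalene synthase, catalyses the first step that serves sterols alone. Probe set 1438322_x_at gave 6.24 and 5.72 in TCDD emigrants and 6.07 and 5.71 in oil emigrants. It gave 5.67 and 5.57 in TCDD thymocytes and 6.26 and 6.45 in oil thymocytes. Thymocytes after TCDD were therefore below thymocytes after oil without overlap, while the emigrant groups overlapped. The set 1448130_at gave 5.32 and 5.78 in TCDD emigrants, 4.90 and 5.69 in oil emigrants, 4.88 and 4.93 in TCDD thymocytes and 5.51 and 5.70 in oil thymocytes, the same separation in thymocytes. The remaining sets did not show it. On 1438918_at the levels were 5.53 and 4.74 in TCDD thymocytes and 5.60 and 4.96 in oil thymocytes, and on 1438919_x_at they were 5.35 and 4.14 in TCDD thymocytes and 5.11 and 4.23 in oil thymocytes.

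Sqle, squalene epoxidase, a rate-limiting enzyme of the sterol branch, has 1 probe set. It read 6.70 and 7.49 in TCDD emigrants, 6.36 and 7.74 in oil emigrants, 7.18 and 6.51 in TCDD thymocytes and 7.17 and 7.25 in oil thymocytes. The emigrant groups overlapped, and each had its higher value on the array numbered 2. In thymocytes the TCDD arrays lay on either side of the oil arrays' lower value, so those groups overlapped too.

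Cyp51, the demethylase that acts on lanosterol, had levels of 6.97 and 8.15 in TCDD emigrants and 6.66 and 8.32 in oil emigrants on 1450646_at. In thymocytes they were 5.79 and 6.33 after TCDD and 5.47 and 7.03 after oil. All 4 emigrant arrays lay above both TCDD thymocyte arrays, while thymocytes oil 2 lay above the lower array of each emigrant group. The other probe sets of the gene stayed between 3.54 and 4.14 on every array, below the array medians.

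Srebf2 encodes SREBP-2 itself. On 1452174_at it read 5.32 and 5.91 in TCDD emigrants, 5.61 and 5.29 in oil emigrants, 5.48 and 5.61 in TCDD thymocytes and 5.40 and 5.75 in oil thymocytes. Every pair of groups overlapped on that set. The second set, 1426744_at, gave 4.67 and 5.02 in TCDD emigrants, 4.59 and 4.49 in oil emigrants, 4.60 and 4.78 in TCDD thymocytes and 4.37 and 4.91 in oil thymocytes. Its TCDD emigrants lay above its oil emigrants, and the thymocyte groups overlapped.

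**Figure D1:**
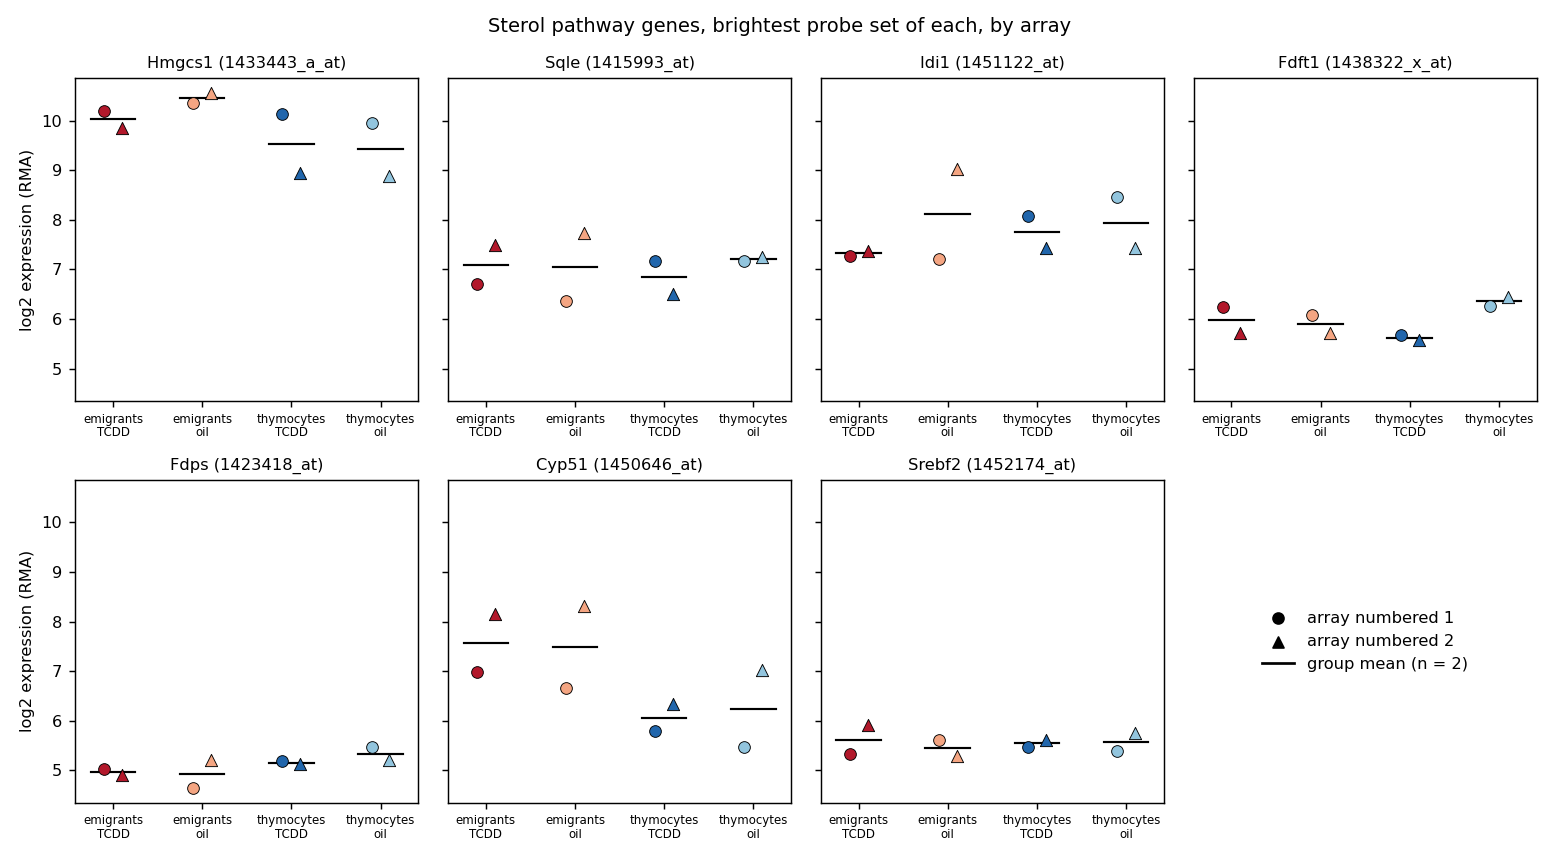
Log2 RMA level of each member gene (brightest probe set, y axis) in the 8 arrays, with emigrants TCDD, emigrants oil, thymocytes TCDD and thymocytes oil from left to right, points for arrays and bars for group means. Fdft1 in TCDD thymocytes (5.67 and 5.57) lies below oil thymocytes (6.26 and 6.45), and Cyp51 in emigrants reaches 8.32.

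The first comparison asked whether TCDD altered these genes in emigrants, using limma fitted to all 22690 probe sets and 8 arrays. None of the 18 member probe sets passed an adjusted p of 0.05, and 0% of all probe sets did. Idi1 had the widest mean difference, -0.79 (SE 0.630, adjusted p = 1.00 by limma), followed by Hmgcs1 with -0.42 (SE 0.479, adjusted p = 1.00 by limma). The other Hmgcs1 sets gave -0.45, -0.70 and -0.69, and the other Idi1 set gave -0.91. On their brightest sets the remaining genes had smaller differences, with 0.05 for Sqle, 0.09 for Fdft1, 0.04 for Fdps, 0.07 for Cyp51 (SE 0.751) and 0.16 for Srebf2. The other Fdft1 sets gave 0.26, 0.24 and 0.34. Of the 7 genes, 5 had a higher mean after TCDD and 2 a lower one, with a median of 0.05, beside a median of 0.02 over all probe sets. None of the 7 had an unadjusted p under 0.05, which 1.2% of all probe sets had. On the brightest sets, only Hmgcs1 had groups that did not overlap, lower after TCDD, as had 10.9% of all probe sets. Among the other sets, Hmgcs1 1433444_at was also lower without overlap, and Srebf2 1426744_at was higher without overlap, by 0.30, a pattern shown by 13.7% of all probe sets.

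The Idi1 difference in emigrants rested on emigrants oil 2. Without that array it was 0.12, and without emigrants oil 1 it was -1.69. The difference of Hmgcs1 kept its sign, with -0.32 without emigrants oil 2 and -0.53 without emigrants oil 1. Cyp51 gave 0.90 without emigrants oil 2 and -0.76 without emigrants oil 1. Its array numbered 2 was the higher in both emigrant groups, by 1.18 after TCDD and 1.66 after oil. Leaving out 1 array thus also unbalances the array numbers between the groups. The granulocyte markers were higher after TCDD in emigrants for 11 of 11 measured members, with list means of 8.23 and 5.53 in TCDD emigrants and 6.15 and 5.80 in oil emigrants. Macrophage and dendritic cell markers were higher for 11 of 12, with list means of 6.87 and 7.38 in TCDD emigrants and 6.34 and 7.13 in oil emigrants, and erythroid markers for 7 of 7. Platelet markers were higher for 5 of 6, and natural killer cell markers lower for 6 of 8, with list means of 7.65 and 7.01 in TCDD emigrants and 7.91 and 8.03 in oil emigrants. Their part in these differences was not tested.

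In thymocytes the comparison of TCDD with oil likewise gave 0 called member probe sets, beside 0% of all probe sets. Fdft1 had a mean difference of -0.73 (SE 0.222, unadjusted p = 0.0153, adjusted p = 1.00 by limma), and its set 1448130_at had -0.70 (SE 0.288, unadjusted p = 0.0492 by limma). An unadjusted p under 0.05 was reached by 1.38% of all probe sets. The other Fdft1 sets gave -0.15 and 0.08, so the probe sets of the gene did not give the same size of difference. Hmgcs1 had 0.11, Sqle -0.37, Idi1 -0.19, Fdps -0.19, Cyp51 -0.18 and Srebf2 -0.03. The Sqle value was -0.70 without thymocytes TCDD 1 and -0.034 without thymocytes TCDD 2. Of the 7 genes, 1 had a higher mean and 6 a lower mean after TCDD, with a median of -0.19 against -0.00 over all probe sets, of which 48.8% had a higher mean. With 1 thymocyte array left out, the Fdft1 difference lay between -0.83 and -0.64. Fdft1 and Fdps were lower without overlap, a pattern shown by 11% of all probe sets. Cell cycle genes had lower means after TCDD in thymocytes for 14 of 15 measured members, with a median of -0.41. Granulocyte markers had lower means for 10 of 11, with list means of 7.44 and 6.09 in TCDD thymocytes and 7.48 and 6.77 in oil thymocytes, and macrophage and dendritic cell markers had lower means for 9 of 12. Natural killer cell markers had higher means for 6 of 8, with list means of 6.71 and 7.51 in TCDD thymocytes and 6.56 and 6.92 in oil thymocytes. The part of these lists in the differences was not tested.

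The difference in the TCDD response between emigrants and thymocytes was tested as an interaction. Fdft1 had an interaction of 0.82 (SE 0.314, unadjusted p = 0.0384, adjusted p = 1.00 by limma), and its set 1448130_at had 0.96 (SE 0.407, unadjusted p = 0.0549 by limma). The other Fdft1 sets had 0.39 and 0.27. Hmgcs1 had -0.54 and Idi1 -0.59. No member was called, beside 0% of all probe sets, and 1.28% of all probe sets had an unadjusted p under 0.05. Leaving out 1 array at a time, the Fdft1 interaction lay between 0.56 and 1.08. The Idi1 interaction was 0.31 without emigrants oil 2. The Hmgcs1 interaction was 0.06 without thymocytes TCDD 1 and -1.14 without thymocytes TCDD 2.

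**Figure D2:**
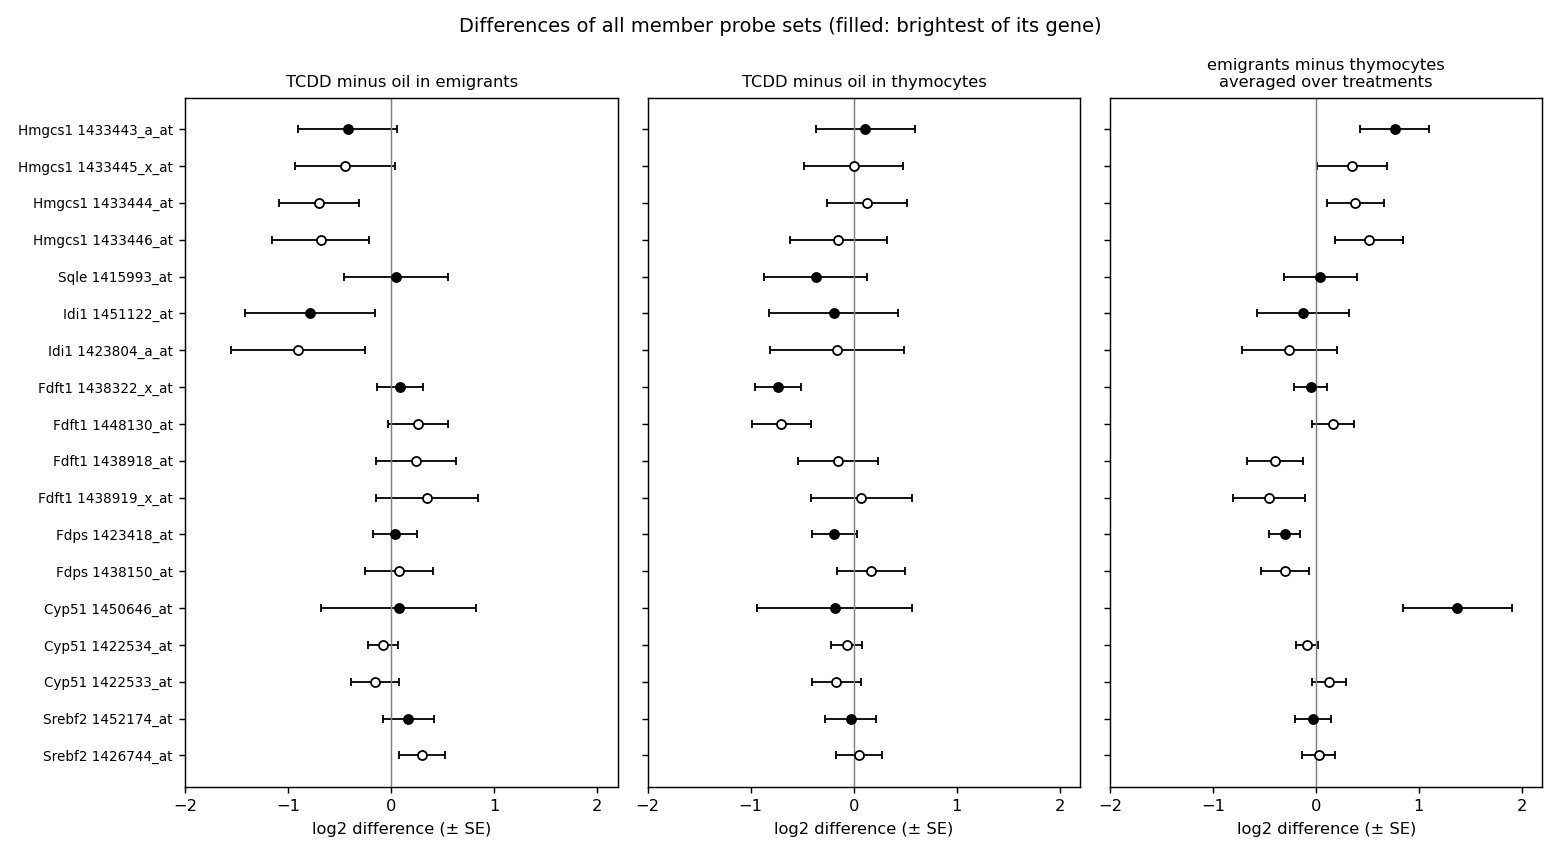
Difference in log2 level (x axis) of all 18 member probe sets with the fit's SE as bars, for TCDD minus oil in emigrants, TCDD minus oil in thymocytes and emigrants minus thymocytes averaged over treatments, filled points marking the brightest set of each gene. Cyp51 is at 1.37 on its brightest set in the panel on cell source. Fdft1 is at -0.73 and -0.70 on 2 of its sets in the panel on TCDD in thymocytes.

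Emigrants were then set against thymocytes within each treatment and averaged over treatments. Cyp51 had a mean higher by 1.50 in emigrants under TCDD (SE 0.751, adjusted p = 0.733 by limma) and by 1.25 under oil (SE 0.751, adjusted p = 0.725 by limma). Averaged over treatments the difference was 1.37 (SE 0.531, unadjusted p = 0.0399, adjusted p = 0.321 by limma). Under TCDD the groups did not overlap, as was true in that direction of 20.6% of all probe sets, and under oil they did overlap. Under TCDD it was 0.91 without emigrants TCDD 2. With single arrays left out, the averaged difference lay between 0.96 (no emigrants oil 2) and 1.79 (no emigrants oil 1). Under oil alone it was 0.42 without emigrants oil 2 and 0.47 without thymocytes oil 1. Also under oil, it was 2.08 without emigrants oil 1 and 2.03 without thymocytes oil 2. All these values are of set 1450646_at. The other Cyp51 sets, which lay below the array medians, had averaged differences of -0.09 (1422534_at) and 0.13 (1422533_at).

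Hmgcs1 had a mean higher by 0.76 in emigrants averaged over treatments (SE 0.338, unadjusted p = 0.0629, adjusted p = 0.385 by limma). Under oil the difference was 1.03 (SE 0.479, adjusted p = 0.621 by limma) with no overlap, a state shown by 20% of all probe sets, and under TCDD it was 0.50. Leaving out thymocytes oil 1 gave 1.56 under oil, and leaving out thymocytes oil 2 gave 0.51. Under TCDD it was 1.09 without thymocytes TCDD 1 and -0.10 without thymocytes TCDD 2. Averaged over treatments it was 0.47 without thymocytes TCDD 2 and 0.50 without thymocytes oil 2. The other Hmgcs1 sets had averaged differences of 0.35, 0.38 and 0.51.

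The averaged differences of the other members were smaller. Fdps had -0.30 (SE 0.152, adjusted p = 0.438 by limma), Sqle 0.04, Idi1 -0.13, Fdft1 -0.05 and Srebf2 -0.03. Of the 7 genes 3 had higher and 4 lower means in emigrants, with a median of -0.03 beside 0.03 over all probe sets. None of the 18 member probe sets was called in any of the 3 source comparisons. Beside these counts stand 0% of all probe sets under TCDD, 0% under oil and 0.0617% averaged. An unadjusted p under 0.05 was reached by 0 of the 7 genes under TCDD (7.43% of all probe sets), by 0 under oil (8.94%) and by Cyp51 in the average (14.1%). Under TCDD, Cyp51 and Fdft1 were higher without overlap and Idi1 and Fdps lower, the lower pattern being shown by 15.1% of all probe sets. Under oil Fdft1 was lower without overlap, as were 18.8% of all probe sets. Averaged over treatments no member had all 4 emigrant arrays on one side of all 4 thymocyte arrays.

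Marker and cell cycle lists also differed in level between the sources. All 15 measured cell cycle genes had lower means in emigrants averaged over treatments, with a median of -0.998 and list means from 7.04 to 7.89 in emigrants and from 7.77 to 8.83 in thymocytes. None of the 15 was called, and Aurkb, a mitotic kinase, was at -1.30 (adjusted p = 0.0901 by limma). Natural killer cell markers had list means of 7.01 to 8.03 in emigrants and 6.56 to 7.51 in thymocytes, with 7 of 8 higher. Macrophage and dendritic cell markers had list means of 6.34 to 7.38 in emigrants and 6.51 to 6.90 in thymocytes, with 10 of 12 higher. Higher means in emigrants were also found for 5 of 15 T lineage markers, 3 of 11 granulocyte markers, 5 of 7 erythroid markers, 2 of 7 B cell markers, 5 of 6 platelet markers and 4 of 7 thymic stroma markers. No RMA value was 0, the lowest being 2.54, so no defining marker was at 0. The part of these lists in the Cyp51 and Hmgcs1 values was not tested.

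The spread between arrays of a group limits what these comparisons can show as fitted. The main fit has no term for the array number. Its residual SD, SE and p therefore include any shift that same-numbered arrays of a source share. Deviations of same-numbered arrays correlated at 0.524 between the emigrant groups and 0.734 between the thymocyte groups. How much of the spread below is such a shift was not tested. The residual SD on the log2 scale of the brightest probe set was 0.927 for Cyp51, 0.773 for Idi1, 0.611 for Sqle and 0.580 for Hmgcs1. It was 0.271 for Srebf2, 0.236 for Fdft1 and 0.225 for Fdps. All 7 lay above 0.214, the median of all probe sets. For Cyp51 the residual SD stood at the 97.9th percentile of all probe sets.

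For Cyp51 the array numbered 2 was higher than the array numbered 1 in 4 of 4 groups. The gaps were 1.18 in TCDD emigrants, 1.66 in oil emigrants, 0.54 in TCDD thymocytes and 1.56 in oil thymocytes. A like agreement in 4 of 4 groups was shown by 10.1% of all probe sets. The gap for Idi1 ran to 1.81 in oil emigrants and -1.04 in oil thymocytes, and for Hmgcs1 it was -1.19 in TCDD thymocytes and -1.05 in oil thymocytes but 0.21 in oil emigrants and -0.35 in TCDD emigrants. Sqle had gaps of 0.79 in TCDD emigrants, 1.38 in oil emigrants, -0.67 in TCDD thymocytes and 0.08 in oil thymocytes. The macrophage and dendritic cell list was also higher on number 2 in 4 of 4 groups, and the granulocyte and erythroid lists in 0 of 4. Whether these marker values have a part in the Cyp51 gaps was not tested. The labels do not say what the numbers stand for.

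**Figure D3:**
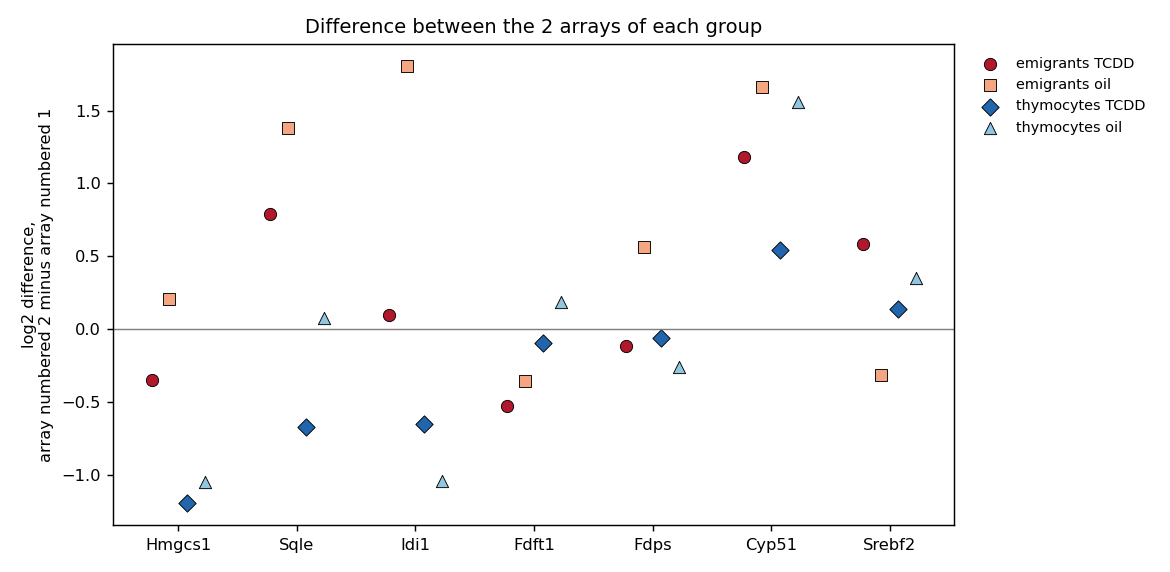
Difference in log2 level between the array numbered 2 and the array numbered 1 of a group (y axis) for the brightest probe set of each of the 7 member genes, with the 4 groups from emigrants TCDD to thymocytes oil. Cyp51 is above 0 in every group (0.54 to 1.66), while Hmgcs1 is below 0 in both thymocyte groups.

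Emigrants oil 2 held the highest value of the 8 arrays for 4 of the 7 genes, Hmgcs1, Sqle, Idi1 and Cyp51, and for 8 of the 18 probe sets. Over all probe sets it held the highest value for 9.69%. It also had the highest cell cycle list mean of the emigrants, 7.89, against 7.41 and 7.13 in TCDD emigrants and 7.04 in emigrants oil 1. Srebf2, in contrast, had its lowest level of the 8 arrays there, 5.29, and Fdft1 (5.71) and Fdps (5.21) did not peak there. In thymocytes the cell cycle list means were 7.77 to 8.83 and the Rag1 levels 9.33 to 10.21, while none of the 4 genes peaked there. The part of the cell cycle, Rag1 and Col3a1 levels in the values of the 4 genes was not tested.

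Levels of the members were also set against each other over the 8 arrays. Of the 21 pairs of genes, 10 had a Pearson r above 0, with a median of -0.00 and a range from -0.60 (Idi1 with Srebf2) to 0.66 (Sqle with Idi1). All pairs share the same 8 arrays and their 4 groups. Against the mean profile of the 6 enzymes, r was 0.83 for Sqle, 0.72 for Idi1, 0.65 for Cyp51, 0.57 for Hmgcs1, 0.24 for Fdps, -0.07 for Fdft1 and -0.33 for Srebf2, which was not part of the mean. The enzymes are part of the mean they are set against. Among 7306 other genes, those most like this profile over the 8 arrays were Nap1l4 (r = 0.946), Chek2 (0.926), Aldh18a1 (0.923), Atp5a1 (0.913) and Igf2 (0.910), then Ncam1, Tspan4, Mgll, Col1a2 and Hccs, down to 0.887. The profile itself was highest on emigrants oil 2, at 0.66, and lowest on thymocytes TCDD 2, at -0.45.

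The other enzymes of the pathway are 15 genes, of which 12 had a probe set. None was called in any comparison. After TCDD 7 had a higher and 5 a lower mean in emigrants, with a median of 0.12, and 3 had a higher and 9 a lower mean in thymocytes, with a median of -0.15. Averaged over treatments 8 were higher and 4 lower in emigrants, with a median of 0.12. Pmvk, a mevalonate pathway kinase, was at 0.64, Lss, which cyclises squalene epoxide, at 0.34, and Lbr, a sterol reductase of the nuclear membrane, at -0.69.

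Genes of SREBP regulation and sterol uptake had 8 of 11 members measured, with none called. Averaged over treatments 5 were higher and 3 lower in emigrants, with a median of 0.13. Stard4, a sterol carrier protein, had levels of 6.92 and 7.04 in TCDD emigrants and 6.90 and 7.66 in oil emigrants, against 6.21 and 6.79 in TCDD thymocytes and 6.58 and 6.53 in oil thymocytes. All emigrant arrays were above all thymocyte arrays, a state shown by 6.13% of all probe sets, with a difference of 0.61 (adjusted p = 0.274 by limma). Scap went the other way, with a difference of -0.33 (adjusted p = 0.428 by limma). All its emigrant arrays were below all its thymocyte arrays, as in 5.64% of all probe sets. Insig2, the second Insig gene, had levels of 7.22 and 7.00 in TCDD emigrants and 7.52 and 6.95 in oil emigrants, against 5.64 and 7.13 in TCDD thymocytes and 4.99 and 6.87 in oil thymocytes. Under oil its emigrant arrays lay above its thymocyte arrays, as was true in that direction of 20% of all probe sets. Its groups overlapped under TCDD and averaged over treatments, and its thymocyte arrays numbered 1 were the low ones.

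Of the fatty acid synthesis list, driven mainly by SREBP-1, 12 of 13 members were measured and none was called. Elovl6, an elongase, had levels of 7.25 and 6.76 in TCDD emigrants and 7.41 and 6.94 in oil emigrants, against 6.48 and 6.23 in TCDD thymocytes and 6.40 and 6.30 in oil thymocytes, a difference of 0.74 (adjusted p = 0.133 by limma). Elovl5, also an elongase, was at 0.41 (adjusted p = 0.189 by limma), and Fads2, a desaturase, at -0.53 (adjusted p = 0.325 by limma), and neither gene's emigrant arrays overlapped the thymocyte arrays. Of all probe sets, 6.13% were higher and 5.64% lower without overlap. The list as a whole had 4 higher and 8 lower means in emigrants, with a median of -0.10.

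A further list joins targets of LXR, the sterol-sensing receptor that drives efflux, with other genes of cholesterol efflux and storage. Of its 11 members 7 were measured and none was called. Abca1, the cholesterol export pump, had levels of 8.07 and 8.05 in TCDD thymocytes against 7.10 and 6.92 in oil thymocytes. The difference was 1.05 (SE 0.343, unadjusted p = 0.0213, adjusted p = 1.00 by limma), with no overlap, a state shown by 9.69% of all probe sets. In emigrants the levels were 7.99 and 7.76 after TCDD and 7.11 and 8.21 after oil, and they overlapped. Over the list, 6 had a higher and 1 a lower mean after TCDD in thymocytes, with a median of 0.09. Abca1 was the only member without overlap there, and Abcg1 was at 0.18. After TCDD in emigrants 6 were also higher and 1 lower, with a median of 0.11. The isoprenoid branch had 6 of 9 members measured, with 1 higher and 5 lower means after TCDD in thymocytes and a median of -0.18.

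**Figure D4:**
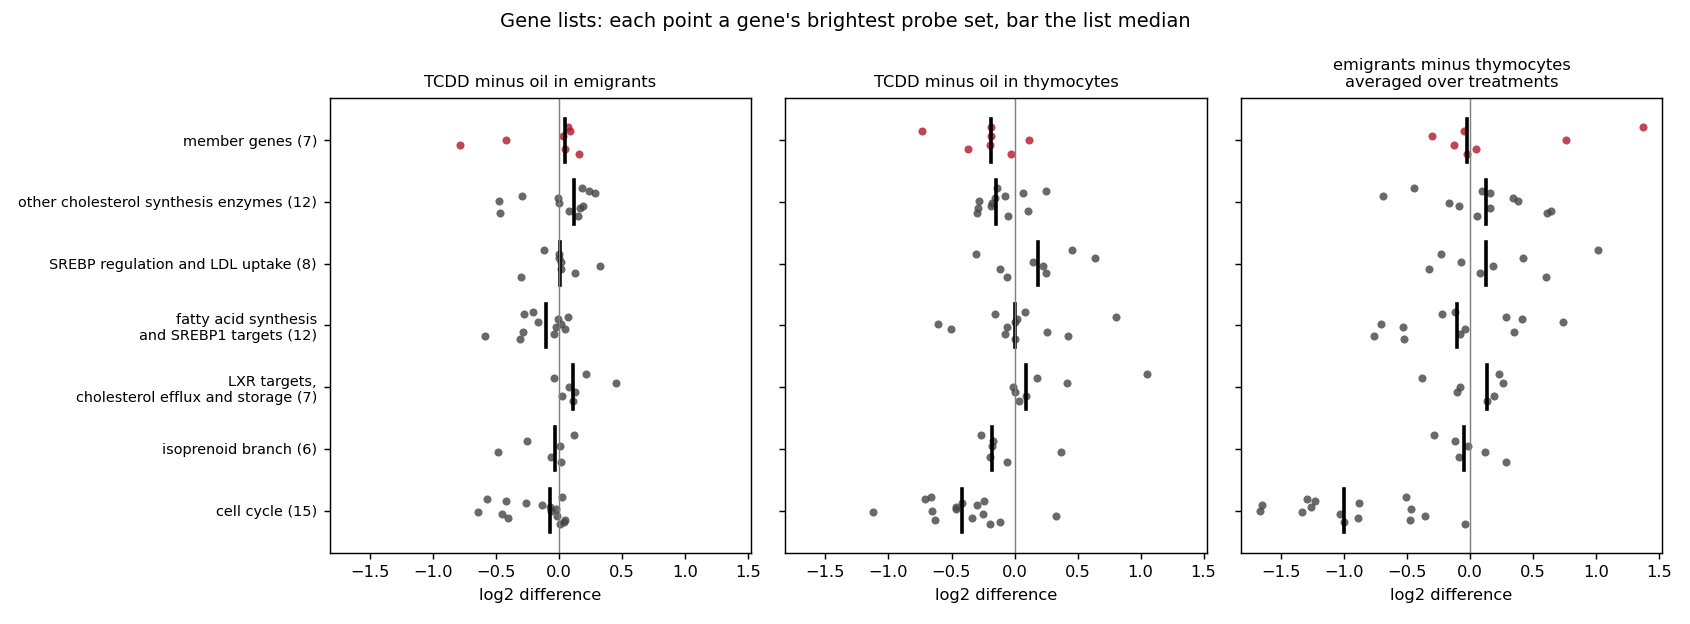
Differences in log2 level (x axis) of single genes, grouped by list down the page with the number of measured genes in brackets, for TCDD minus oil in emigrants, TCDD minus oil in thymocytes and emigrants minus thymocytes averaged over treatments, each point the brightest probe set of a gene and each bar the list median. The cell cycle list has its median at -0.998 in emigrants against thymocytes, and the member genes have theirs at -0.03.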

How the data were processed

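The values, as the authors deposited them, are log2 levels of 22690 probe sets on 8 arrays, and RMA is named in the submitters' processing notes without a version. Per the labels' protocols, RNA went into TRIzol from the sorter, was precipitated with linear polyacrylamide and amplified before hybridisation. RMA makes the value distributions of arrays alike, so a shift shared by most genes is not seen, and it compresses differences of dim probe sets.

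Gene names came from the platform annotation and were updated by gene identifier through a RefSeq table (GRCm38.p6). A single symbol was found for 20393, several for 691 and none for 1606, and the last 2 kinds were named as no gene. No filter was applied. All probe sets were fitted with limma 3.58.1 under R 4.3.3 (lmFit, then eBayes, on 4 group means, 4 residual degrees of freedom, two-sided, Benjamini-Hochberg, threshold 0.05), and the code was tested on simulated data. With 8 arrays, their number limits the precision.

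All probe sets of the members are described. Up to 4 genes of each other list, taken by p in a comparison, could be named, as could the 10 genes most like the mean enzyme profile. Rag1, Col3a1, Il2ra, Krt5, Cd4, Cd8a, Cd8b1, Csf1r, H2-Aa, Cd74, Tiparp and Scin were chosen after their values were seen. The members and lists were chosen with earlier results of these data known. Alternatives were other normalizations, probe set rules and eBayes settings, a replicate block, fits to the compared arrays alone, the group that the Treatment field gives, and the loss of each array in turn. Promoter windows were searched on both strands.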

Additional observations from a re-analysis of the deposited data

How the results depend on the processing

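None of the 42 differences of the 7 genes passed the threshold under any alternative, over 714 recomputed values. The sign turned in 60 of them, 48 of these with an array left out. A fit without an array assumes that the lone array of its group varies like the others. It also leaves the array numbers unbalanced between groups, so a gap between numbers enters the difference. The count of all probe sets called in emigrants against thymocytes averaged over treatments, 14, was 69 with the mean of each gene's probe sets, 34 with repeated quantile normalization, 109 with only brighter probe sets, 6 with trend and robust eBayes, 88 with the Treatment field of emigrants oil 1, and 0 to 76 with an array left out. It was 76 without emigrants TCDD 1 and 48 without emigrants oil 2, against 2 without emigrants oil 1 and 0 without any other single array. Under TCDD the count of 0 was 1 with trend and robust eBayes, 16 with the Treatment field and 0 to 13 with an array left out. Under oil it was 1 with the mean of probe sets and 1 with the Treatment field. The Treatment field also gave 1 for TCDD in emigrants and 1 for the interaction. The cause of these shifts was not tested.

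With the Treatment field, TCDD minus oil in emigrants gave -0.42 for the median of the members, -0.89 for Sqle, -0.35 for Fdps and -1.06 for Cyp51. Emigrants minus thymocytes under oil gave 0.53 for the median and 0.53 for Sqle, the average gave 0.31 for Idi1, and the interaction gave -0.52 for the median, -0.52 for Sqle, -0.17 for Fdps and -0.88 for Cyp51. The mean of each gene's probe sets gave -0.057 for Cyp51 with TCDD in emigrants, and for Srebf2 0.010 with TCDD in thymocytes and 0.00052 in the average. Centring arrays on their medians gave -0.0052 for Sqle in the average. Ranges with each array left out follow, for values that turned sign or, for the median, moved by more than 0.352, its SD between arrays. For TCDD minus oil in emigrants the ranges were the median of the members -0.53 to 0.12, Sqle -0.64 to 0.74, Idi1 -1.69 to 0.12, Fdft1 -0.18 to 0.35, Fdps -0.25 to 0.32, Cyp51 -0.76 to 0.90 and Srebf2 -0.13 to 0.46. For TCDD minus oil in thymocytes the ranges were Hmgcs1 -0.48 to 0.71, Idi1 -0.72 to 0.33, Cyp51 -0.96 to 0.60 and Srebf2 -0.21 to 0.15. For emigrants minus thymocytes under TCDD the ranges were the median of the members -0.13 to 0.41, Hmgcs1 -0.10 to 1.09, Sqle -0.14 to 0.65 and Srebf2 -0.22 to 0.36. For emigrants minus thymocytes under oil the ranges were the median of the members -0.28 to 0.53, Sqle -0.85 to 0.53, Idi1 -0.73 to 1.07 and Srebf2 -0.30 to 0.055. For emigrants minus thymocytes averaged over treatments the ranges were the median of the members -0.15 to 0.33, Sqle -0.30 to 0.39, Idi1 -0.58 to 0.33, Fdft1 -0.18 to 0.080 and Srebf2 -0.17 to 0.12. For the interaction the ranges were the median of the members -0.28 to 0.50, Hmgcs1 -1.14 to 0.059, Sqle -0.28 to 1.10, Idi1 -1.50 to 0.31, Fdps -0.062 to 0.50, Cyp51 -0.58 to 1.08 and Srebf2 -0.10 to 0.48.

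Deviations of same-numbered arrays correlated at 0.524 between the emigrant groups and 0.734 between the thymocyte groups, but between -0.148 and 0.123 across cell sources. Same-numbered arrays thus deviated together within each source, while no pair across sources correlated above 0.123. The labels give no meaning for the numbers, so the block is given here alone. With the replicate block the averaged count was 203, and Cyp51 had an adjusted p of 0.0568 by limma. That block assumes a shift per array number that emigrants and thymocytes share. The correlations across sources, between -0.148 and 0.123, do not bear this out, so no conclusion is drawn from that count and p. With the replicate block within each cell source, 1 probe set was called for TCDD in thymocytes, and no member. For TCDD minus oil in thymocytes, that fit gave Fdft1 an unadjusted p of 0.0025 and an adjusted p of 0.632 by limma. For TCDD minus oil in emigrants, it gave Hmgcs1 0.0533 and 0.848, and Cyp51 0.805 and 0.972. That fit was not run for emigrants against thymocytes, where the numbers lie within sources. Depth, seen on arrays as signal over background, could not be judged, since no detection calls were used.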
